A study of Drosophila melanogaster with 18 samples.

Results

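The genes described here are the 10 named components of the Eiger and c-Jun N-terminal kinase (JNK) pathway of Drosophila melanogaster: egr, grnd, wgn, hep, bsk, Jra, kay, puc, Mmp1 and Ets21C. They were chosen by name, from the ligand to the target genes, out of 14237 genes in the deposited table, and all 10 passed the filter on low counts that left 12762 genes tested. RNA was sequenced from whole ovaries of newly eclosed females in 18 libraries of 7 genotypes, each library made from about 100 pairs of ovaries. The mutants were emerin G/PK (n = 2) and emerin G/PI (n = 2), which combine a piggyBac insertion in the emerin gene Ote (allele G) with a nonsense (PK) or a substitution (PI) allele in a yw background. The double mutant chk2, emerin (n = 3) carried the chk2 P6/P30 alleles together with emerin G/PK, and its stocks were also in a yw background. In baf GLKD (n = 2), a short hairpin RNA against baf was driven by nos>gal4VP16, a driver active in germ cells only, so somatic cells kept baf. By the study's methods, the driver line was a w mutant and the hairpin line carried y, sc, v and sev mutations. The references were Canton S (CS, n = 4) and yw (n = 3), together called wild type, and the driver line alone (nosgal4, n = 2). The labels do not say which libraries share a cross, so p-values measure the spread between these libraries.

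Eiger, encoded by egr, is the tumour necrosis factor of flies, and it acts through the receptors Grindelwald and Wengen. Receptor signalling runs through a kinase cascade in which Hemipterous, the JNK kinase, phosphorylates Basket, the fly JNK, and Basket activates the AP-1 transcription factor made of Jra (Jun) and Kayak (Fos). AP-1 target genes include puc, whose phosphatase product switches Basket off again, the matrix protease gene Mmp1 and the transcription factor gene Ets21C. The cascade is known for its roles in epithelial closure, wound repair, stress responses and cell death. Emerin and BAF are proteins of the nuclear lamina, and Chk2 is a checkpoint kinase.

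Library totals lay between 18138657 and 28372959 counts. Expression is given below in CPM, the counts of a gene scaled by TMM to a common library size. Ote lay between 11.7 and 59.0 CPM in the 4 emerin libraries, against 64.8 to 85.3 CPM in wild type. The highest emerin value was in emerin G/PI replicate 1, which was also the lowest emerin library for all 9 genes that are called higher below. baf was at 66.4 and 72.5 CPM in baf GLKD ovaries and at 86.0 and 110.0 CPM in nosgal4 ovaries. Without the hairpin, baf was at 76.8 to 96.6 CPM in emerin and at 51.6 to 75.1 CPM in chk2, emerin ovaries. lok, which encodes Chk2, was at 14.3 to 16.0 CPM in chk2, emerin ovaries and at 55.2 to 121 CPM in emerin ovaries. Its level was 194 to 247 CPM in wild type, 246 and 286 CPM in nosgal4, and 137 and 144 CPM in baf GLKD. Thus lok was itself lower in emerin and baf GLKD ovaries than in their references. By the labels, the knockdown flies alone were kept at 25 °C and every other genotype at room temperature, whereas the study's methods name 25 °C for its crosses in general. If the labels hold, the knockdown and the temperature cannot be told apart.

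The make-up of the ovaries also differed between genotypes, as the plot of marker sums shows. Of 7 germline markers, 6 were lower in emerin ovaries and bgcn was higher, and their summed expression was 307 to 1465 CPM in emerin and 3043 to 4763 CPM in wild type. All 6 hemocyte markers were higher, with sums of 939 to 1693 CPM in emerin and 43.9 to 248 CPM in wild type. All 6 markers of muscle were higher too, with sums of 23498 to 27469 CPM in emerin and 2917 to 6227 CPM in wild type. The 4 tracheal markers were higher, at 171 to 317 CPM in emerin and 45.3 to 102 CPM in wild type, as were 3 of 4 fat body markers and 5 of 9 markers of ovarian somatic cells, while tj, another of the 9, was lower. In baf GLKD ovaries, 3 of 7 germline markers were lower, and 5 of 6 hemocyte, 5 of 6 muscle and 4 of 4 tracheal markers were higher. So were 3 of 4 fat body markers and 5 of 9 markers of ovarian somatic cells, and tj was not called. The hemocyte sums were 507 and 754 CPM in baf GLKD and 31.5 and 58.5 CPM in nosgal4. In chk2, emerin against wild type, the count was 1 of all 36 markers, a muscle gene that was lower. Apart from en, listed at 0 in 1 library, no marker was at 0. In whole ovaries, fewer cells of a type and less RNA per cell cannot be told apart, and the part of cell make-up in the results below was not tested.

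**Figure D1:**
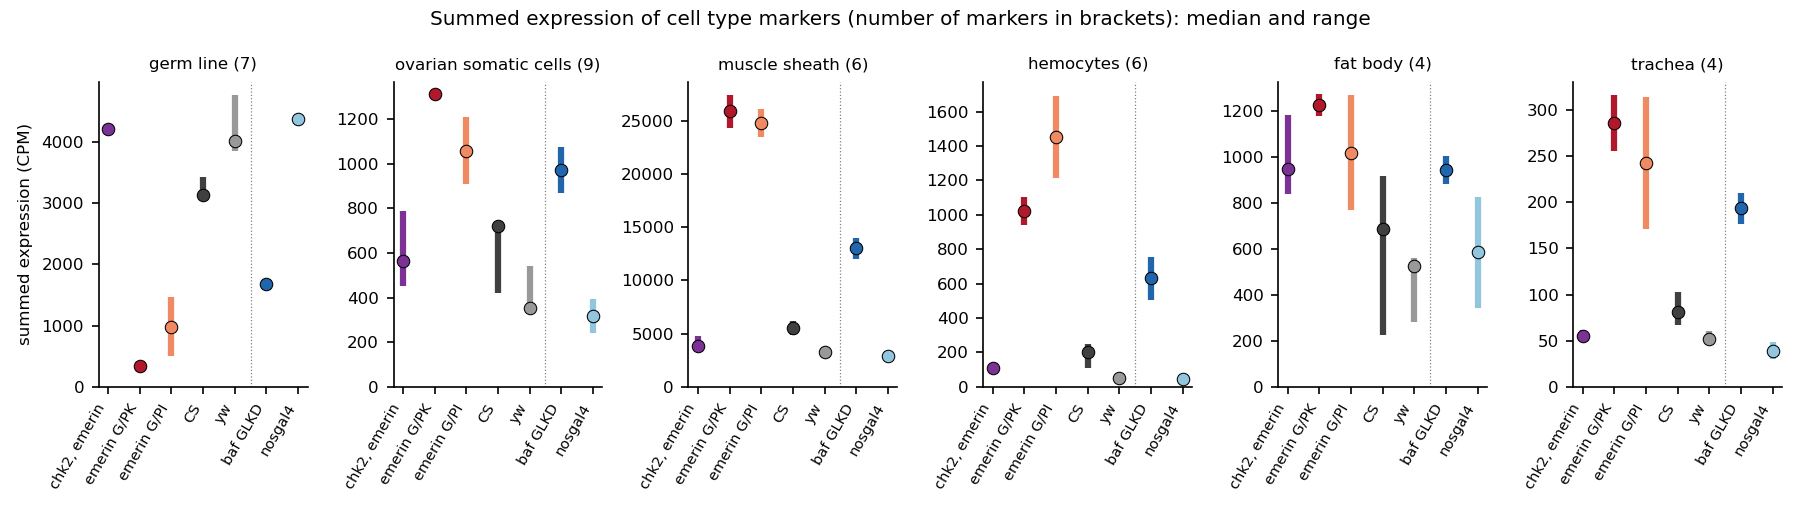
Summed expression in CPM (vertical axis, linear from 0) of the markers of 6 cell types in the 7 genotypes, with points at the median over libraries and bars from the lowest to the highest library. Emerin and baf GLKD ovaries had low germline sums and high muscle, hemocyte and tracheal sums, whereas the chk2, emerin hemocyte sums of 95.6 to 139 CPM lay within the wild-type range.

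In emerin ovaries, 9 of the 10 pathway genes were upregulated relative to wild type and none was downregulated, at an adjusted p under 0.05 in edgeR's quasi-likelihood test. Of all genes tested, 28.3% were upregulated and 26.6% downregulated in the same comparison. The emerin libraries did not overlap with wild type for 8 of the 10, all higher, beside 19.9% of all genes. The largest changes were in grnd, Ets21C and egr, and hep was the member that did not pass the test. The median log2 fold change was 1.22 for the 10 genes and 0.12 for all genes. In baf GLKD against nosgal4, 8 of the 10 were upregulated and none downregulated, beside 13.3% of all genes upregulated and 8.28% downregulated, with a median log2 fold change of 1.43 for the 10 genes and 0.11 for all genes. Both knockdown libraries were above both driver libraries for 9 of the 10, hep being the exception, beside 34.1% of all genes. In this comparison 1692 genes were higher and 1057 lower, a split that became 1819 and 444 when libraries were scaled by their total alone. The baf GLKD count was 4 or 5 when any 1 of its 4 libraries was left out. The emerin count of 9 held without any single library, but was 0 among the 5 emerin and wild-type libraries whose transcript totals fell below the gene table, with 1 emerin library among them. For these smaller sets of libraries the share of all genes called is not given. Their counts therefore cannot be set against it. In chk2, emerin ovaries no member passed the test against wild type. The values of the 10 genes by library are plotted, and are taken below in the order of the pathway.

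**Figure D2:**
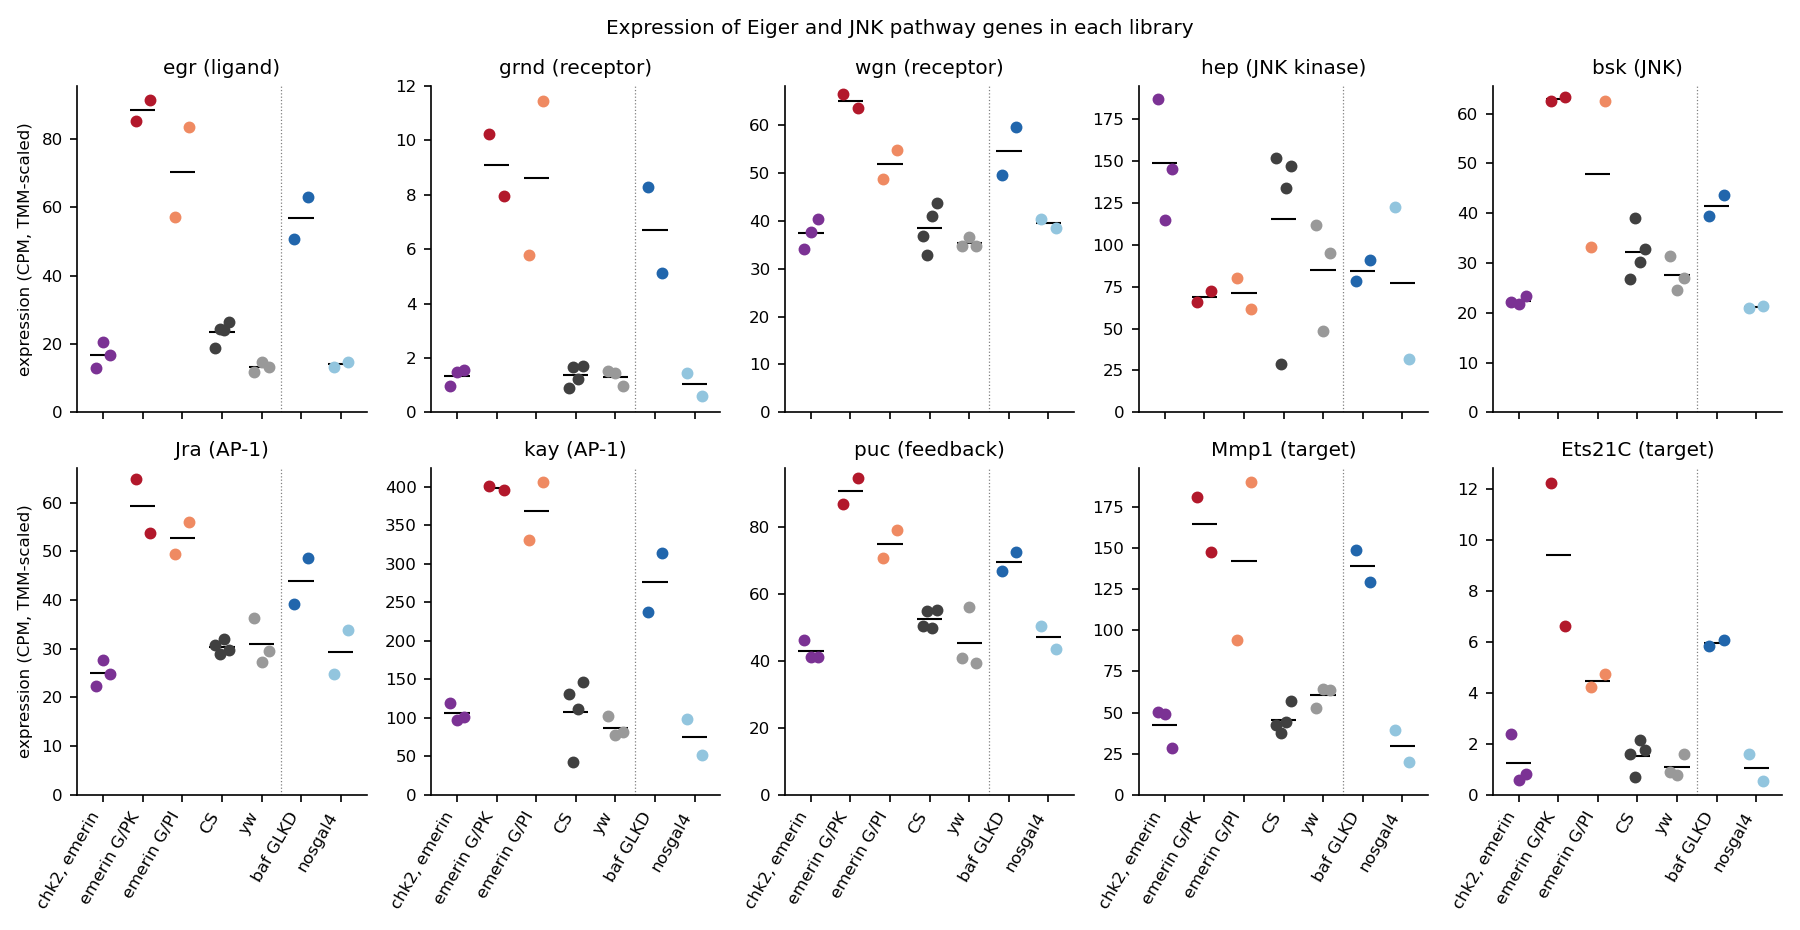
Expression in CPM (vertical axes, linear from 0, a scale for each gene) of the 10 genes in each of 18 libraries, with 1 point for each library and a line at the mean of each genotype. For every gene but hep, the emerin and baf GLKD libraries had the highest genotype means, and the chk2, emerin libraries lay below all emerin libraries.

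The ligand gene egr (FBgn0033483, chromosome 2R, 10078366 to 10084210) was expressed at 57.2 and 83.6 CPM in emerin G/PI and at 85.3 and 91.6 CPM in emerin G/PK, against a range of 11.9 to 26.4 CPM with a median of 18.8 CPM in wild type. Every emerin library lay above every wild-type library. The fold change was 4.16 (log2 2.06 with an SE of 0.21, adjusted p = 9.83e-07 by edgeR). With baf knocked down, egr stood at 50.9 and 63.2 CPM, against 13.2 and 14.8 CPM in nosgal4 ovaries, a log2 fold change of 2.02 (SE 0.36 and adjusted p = 0.00145 by edgeR). Both knockdown libraries were above both driver libraries and below 3 of the 4 emerin libraries. egr in the chk2, emerin double mutant was at 13.1, 20.6 and 16.7 CPM, within the wild-type range and below all emerin libraries. That range joins CS and yw, which differ in egr as given below. The log2 fold change of the double mutant was 0.34 against yw alone (edgeR adjusted p = 0.258). Against CS alone it was -0.48 (edgeR adjusted p = 0.101). The log2 fold change was -2.24 against emerin (SE 0.29 and adjusted p = 9.8e-06 by edgeR).

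egr was the member that differed between the reference strains. It was at 18.8 to 26.4 CPM in the 4 CS libraries and at 11.9 to 14.6 CPM in the 3 yw libraries, without overlap, and the log2 fold change of CS against yw was 0.82 (SE 0.18 and adjusted p = 0.00781 by edgeR). In this comparison 6.37% of all genes were higher in CS and 6.06% lower, and 9.69% were higher without overlap. The hemocyte markers moved in the same direction, 5 of 6 being higher in CS. Their sums were 111 to 248 CPM in CS and 43.9 to 64.2 CPM in yw. Median log2 fold changes of the other somatic lists were also above 0. They were 1.27 for fat body, 0.84 for ovarian somatic cells, 0.62 for muscle and 0.51 for trachea. The germline median was -0.30. The part of these markers in the strain difference was not tested. In the 3 CS and yw libraries whose transcript and gene totals matched, the difference was 0.90 but no longer passed the test (edgeR adjusted p = 0.109).

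The 2 receptor genes differed in level and in size of change. grnd (FBgn0032682, chromosome 2L, 18485417 to 18488021), which encodes Grindelwald, was expressed at 5.78 and 11.5 CPM in emerin G/PI and at 10.2 and 7.96 CPM in emerin G/PK. In wild type it was between 0.887 and 1.72 CPM, with a median of 1.44 CPM, from 17 to 45 counts in a library. All emerin values lay above the wild-type range, and the fold change of 6.55 was the largest of the 10 genes (log2 2.71 with an SE of 0.28, adjusted p = 1.03e-06 by edgeR). The baf GLKD libraries had grnd at 8.29 and 5.13 CPM, against 1.44 and 0.620 CPM in nosgal4 ovaries (log2 fold change 2.69 with an SE of 0.49, adjusted p = 0.0016 by edgeR). The chk2, emerin values of 0.976, 1.47 and 1.56 CPM were again among the wild-type values, and the log2 fold change against emerin was -2.73 (SE 0.38 and adjusted p = 2.57e-05 by edgeR). Of the exonic bases of grnd, 13.1% overlap kon on the opposite strand, and reads from that stretch cannot be assigned to either gene with certainty, because the use of strand in counting was not given in the sources used here.

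wgn (FBgn0030941, chromosome X, 18624042 to 18634908), which encodes Wengen, had a higher level per transcript length than grnd (28 ± 5.66 TPM for wgn in emerin, against 14.7 ± 4.10 TPM in wild type, SD, n = 4 and 7) and changed less. It was at 48.8 and 54.8 CPM in emerin G/PI and at 66.5 and 63.6 CPM in emerin G/PK, against 32.8 to 43.7 CPM with a median of 36.6 CPM in wild type. The groups did not overlap, and the fold change was 1.57 (log2 0.65 with an SE of 0.11, adjusted p = 7.57e-05 by edgeR). baf GLKD ovaries held 49.6 and 59.5 CPM of wgn and nosgal4 ovaries 40.4 and 38.5 CPM. Both knockdown values were higher, but the log2 fold change of 0.47 did not pass the test (SE 0.17 and adjusted p = 0.0608 by edgeR, approximate 95% interval 0.13 to 0.80), and it did with DESeq2 (adjusted p = 0.012). wgn in the double mutant was at 34.1, 37.7 and 40.4 CPM, a log2 fold change of -0.64 against emerin (SE 0.13 and adjusted p = 0.000731 by edgeR).

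The kinase genes moved differently from each other. bsk (FBgn0000229, chromosome 2L, 10247502 to 10250501), the JNK gene itself, was at 33.2 and 62.5 CPM in emerin G/PI and at 62.6 and 63.4 CPM in emerin G/PK, against 24.5 to 38.9 CPM with a median of 30.2 CPM in wild type. The groups overlapped through emerin G/PI replicate 1 alone, the other 3 emerin libraries lying within 1 CPM of each other. The fold change over all libraries was 1.83 (log2 0.87 with an SE of 0.16, adjusted p = 0.000199 by edgeR). bsk in baf GLKD ovaries was at 39.4 and 43.5 CPM, against 20.9 and 21.3 CPM in nosgal4 ovaries (log2 fold change 0.98 with an SE of 0.26, adjusted p = 0.0143 by edgeR). The nosgal4 libraries themselves differed from wild type by a log2 value of -0.52, which did not pass the test (edgeR adjusted p = 0.368). The chk2, emerin values of bsk were 22.1, 21.8 and 23.4 CPM, also below every wild-type library, as were 7.11% of all genes. The log2 fold change of -0.43 against wild type did not pass the test (SE 0.18 and adjusted p = 0.145 by edgeR), whereas that of -1.30 against emerin did (SE 0.20 and adjusted p = 6.23e-05 by edgeR). Without emerin G/PI replicate 1, which is in neither group, the difference of -0.44 from wild type passed the test (edgeR adjusted p = 0.0416).

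hep (FBgn0010303, chromosome X, 13079205 to 13090434), the JNK kinase gene, was the exception among the 10. It was at 80.2 and 61.8 CPM in emerin G/PI and at 65.9 and 72.1 CPM in emerin G/PK, against 29.0 to 152 CPM with a median of 112 CPM in wild type. The emerin libraries lay close together, inside the wide wild-type range. The log2 fold change was -0.55 (SE 0.40 and adjusted p = 0.254 by edgeR, approximate 95% interval -1.33 to 0.23). The baf GLKD values of hep were 78.2 and 90.7 CPM, between the nosgal4 values of 123 and 31.9 CPM. In chk2, emerin ovaries it was at 187, 114 and 145 CPM, above all 4 emerin libraries. That log2 fold change of 1.09 did not pass the test (SE 0.47 and adjusted p = 0.0664 by edgeR). It did when only the groups compared were fitted (1.14, edgeR adjusted p = 0.000803).

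The spread of hep followed single reference libraries. CS replicate 2 had 29.0 CPM while the other CS libraries had 134 to 152 CPM, yw replicate 2 had 48.3 CPM against 112 and 95.1 CPM in the other yw libraries, and nosgal4 replicate 2 had 31.9 CPM. CS replicate 2 and nosgal4 replicate 2 were also the lowest libraries for kay. In the 11 libraries whose transcript and gene tables had matching totals, which hold neither CS replicate 2 nor yw replicate 2, hep was lower in emerin than in wild type (log2 fold change -0.97, edgeR adjusted p = 0.00304). In those 11 libraries it was higher in chk2, emerin than in emerin (1.21, edgeR adjusted p = 0.000697). For baf GLKD against nosgal4, where the 11 libraries leave 1 of each, the value was 1.51, with no replicate of either and with the remaining nosgal4 library the low one. Without nosgal4 replicate 2 it was -0.54.

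**Figure D3:**
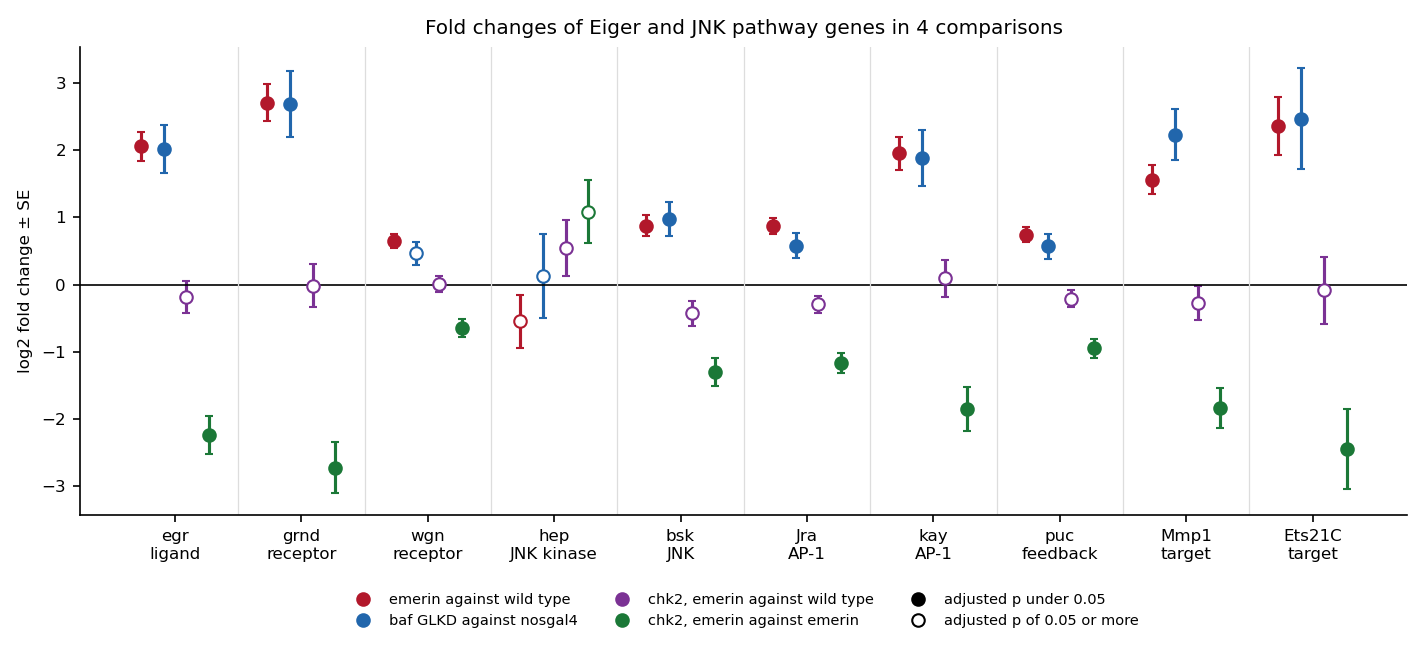
Log2 fold changes (vertical axis) of the 10 genes in 4 comparisons, with bars of 1 standard error of the fitted value and open points where the edgeR adjusted p was 0.05 or more. The emerin and baf GLKD points sit together above 0 for all genes but hep, and the chk2, emerin points lie between -0.43 and 0.54 against wild type.

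Both AP-1 genes were higher in the mutants. Jra (FBgn0001291, chromosome 2R, 10096480 to 10098556) was at 49.5 and 56.0 CPM in emerin G/PI and at 64.9 and 53.9 CPM in emerin G/PK, with 27.3 to 36.3 CPM and a median of 29.7 CPM in wild type. The groups did not overlap (fold 1.83, log2 0.87 with an SE of 0.11, adjusted p = 9.71e-06 by edgeR). In baf GLKD ovaries Jra was at 39.1 and 48.7 CPM, against 24.9 and 33.9 CPM in nosgal4 ovaries. The log2 fold change of 0.58 passed the test narrowly (SE 0.18 and adjusted p = 0.0346 by edgeR) and did not when only those 4 libraries were fitted (edgeR adjusted p = 0.16). Jra in the double mutant was at 22.3, 27.7 and 24.9 CPM, a log2 fold change of -0.30 against wild type (SE 0.13 and adjusted p = 0.161 by edgeR) and of -1.17 against emerin (SE 0.15 and adjusted p = 7.55e-06 by edgeR).

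kay (FBgn0001297, chromosome 3R, 29765995 to 29794113), the Fos gene, changed more than its partner. It was at 330.1 and 405 CPM in emerin G/PI and at 401 and 396 CPM in emerin G/PK, against 42.9 to 146 CPM with a median of 102 CPM in wild type. The lowest emerin library was far above the highest wild-type library, and the fold change was 3.88 (log2 1.96 with an SE of 0.25, adjusted p = 7.47e-06 by edgeR). After baf knockdown kay stood at 238 and 314 CPM, against 97.7 and 51.7 CPM in nosgal4 ovaries (log2 fold change 1.88 with an SE of 0.42, adjusted p = 0.00581 by edgeR). Without nosgal4 replicate 2, the lower of that pair, the value was 1.5 and did not pass the test (edgeR adjusted p = 0.0774). In chk2, emerin ovaries kay was at 120, 96.8 and 100.3 CPM, near the wild-type median, with a log2 fold change of -1.86 against emerin (SE 0.33 and adjusted p = 0.000193 by edgeR).

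kay has 5 annotated transcripts that share a 3′ end and start at 4 positions on chromosome 3R. kay-RF, which starts at 29788936 and is the innermost, was estimated at 48.6 ± 8.48 TPM in emerin and at 6.90 ± 3.08 TPM in wild type (SD, n = 4 and 7), a log2 fold change of 2.49 (SE 0.28 and adjusted p = 1.61e-05 by edgeR over 26262 transcripts). kay-RB, from 29782609, was at 35.0 ± 7.70 TPM in emerin and 7.33 ± 3.10 TPM in wild type (log2 1.93, edgeR adjusted p = 0.000292), and kay-RA, from 29772892, at 19.4 ± 7.41 and 5.18 ± 2.74 TPM (log2 1.6, edgeR adjusted p = 0.00354). kay-RD, from the outermost start at 29765995, was at 4.58 ± 1.09 TPM in emerin and 3.07 ± 2.61 TPM in wild type, and the difference did not pass the test (log2 0.33, edgeR adjusted p = 0.717). The wild-type strains differed here, with kay-RD at 2.15 to 7.25 TPM in CS and 0.237 to 1.10 TPM in yw, the background of the emerin alleles. The emerin libraries, at 3.77 to 6.15 TPM, lay within the CS range and above all yw libraries, and a comparison with yw alone was not tested. kay-RG, which starts with kay-RA, was the rarest, at 1.49 ± 0.747 TPM in emerin and 0.330 ± 0.452 TPM in wild type (log2 1.63, edgeR adjusted p = 0.318). kay-RD took 3.52% to 5.30% of the gene's TPM in emerin, against 14.6% to 25.2% in CS and 1.33% to 6.39% in yw, so the emerin shares were below those of CS and inside the range of yw. kay-RF took a median of 45.2% in emerin, against 30.8% in CS and 28.5% in yw. Its range of 38.7% to 49.5% in emerin was above that of 24.3% to 33.4% in CS. It overlapped the range of 26.7% to 43.0% in yw. In chk2, emerin ovaries the share of kay-RF was 31.3%, and its level of 8.72 ± 1.72 TPM (n = 3) was below that of emerin (log2 -2.26, edgeR adjusted p = 0.000446). In baf GLKD ovaries kay-RF was the only one of the 38 transcripts of the 10 genes that passed the test, beside 1.75% of all transcripts higher (35.4 ± 11.7 TPM, against 7.01 ± 4.57 TPM in nosgal4, SD, n = 2 each, edgeR adjusted p = 0.0242). The shares are descriptions, and no difference between transcripts was tested. Transcript totals were 7.42 to 18.9 times below the gene table in 7 libraries, where these estimates rest on fewer counts.

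Of the other members' transcripts, few could be separated. Over all libraries, 10 of the 38 transcripts of the 10 genes were higher in emerin than in wild type and none was lower, beside 11.7% of all transcripts higher and 11.2% lower. In the 11 libraries with matching totals, 12 of 34 were higher and 2 lower, beside 11.8% and 14.1% of all transcripts. In chk2, emerin against emerin, 7 of the 38 were lower and 1 higher, beside 8.76% and 10.8% of all transcripts. Jra-RA and Jra-RC had identical estimates and cannot be told apart. bsk-RB carried 92.7% to 93.6% of bsk in emerin G/PK. For hep, hep-RE was higher in chk2, emerin than in emerin (log2 1.96 with an SE of 0.56, adjusted p = 0.0214 by edgeR), whereas hep-RF, whose estimates equal those of hep-RD, differed by 0.17 (SE 0.52 and adjusted p = 0.869 by edgeR).

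The AP-1 target genes were all higher in both mutants. puc (FBgn0243512, chromosome 3R, 8105332 to 8122294), the phosphatase gene that serves as the usual reporter of the cascade, was at 70.7 and 79.1 CPM in emerin G/PI and at 86.9 and 94.9 CPM in emerin G/PK. In wild type it was between 39.4 and 56.2 CPM, with a median of 50.6 CPM. The groups did not overlap, but the fold change of 1.67 was smaller than that of the other 2 targets (log2 0.74 with an SE of 0.11, adjusted p = 4.44e-05 by edgeR). puc was at 67.0 and 72.6 CPM in baf GLKD ovaries, against 50.6 and 43.6 CPM in nosgal4 ovaries (log2 fold change 0.57 with an SE of 0.18, adjusted p = 0.0376 by edgeR). The call did not hold when only those 4 libraries were fitted (edgeR adjusted p = 0.0615). chk2, emerin ovaries had 46.2, 41.3 and 41.1 CPM of puc, within the wild-type range, and a log2 fold change of -0.95 against emerin (SE 0.14 and adjusted p = 4.82e-05 by edgeR).

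Mmp1 (FBgn0035049, chromosome 2R, 24671294 to 24688184), which encodes a matrix metalloprotease, was at 94.3 and 190.1 CPM in emerin G/PI and at 181 and 148 CPM in emerin G/PK, against 37.7 to 64.6 CPM with a median of 53.0 CPM in wild type. Emerin G/PI replicate 1 was the lowest emerin library and still lay above the wild-type range. The fold change was 2.96 (log2 1.56 with an SE of 0.22, adjusted p = 2.4e-05 by edgeR). Mmp1 was at 149 and 129 CPM in baf GLKD ovaries, against 39.1 and 19.9 CPM in nosgal4 ovaries, a log2 fold change of 2.23 (SE 0.38 and adjusted p = 0.00105 by edgeR). The double mutant had Mmp1 at 50.5, 49.4 and 28.3 CPM, with a log2 fold change of -1.84 against emerin (SE 0.30 and adjusted p = 8.5e-05 by edgeR). Of its exonic bases, 5.87% overlap Pof on the opposite strand.

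Ets21C (FBgn0005660, chromosome 2L, 544925 to 552923), an ETS-family transcription factor gene, had the lowest level of the 10 in TPM. It was at 4.24 and 4.72 CPM in emerin G/PI and at 12.2 and 6.60 CPM in emerin G/PK, against 0.677 to 2.14 CPM with a median of 1.58 CPM in wild type, which are 17 to 46 counts. No emerin library reached down to the wild-type range, and the fold change was 5.15 (log2 2.36 with an SE of 0.44, adjusted p = 0.000256 by edgeR). In baf GLKD ovaries Ets21C was at 5.85 and 6.08 CPM, against 1.6 and 0.532 CPM in nosgal4 ovaries (log2 fold change 2.47 with an SE of 0.75, adjusted p = 0.0277 by edgeR). With only the 4 libraries fitted, the adjusted p was 0.0539. The chk2, emerin values were 2.40, 0.587 and 0.799 CPM (log2 -2.45 against emerin with an SE of 0.59, adjusted p = 0.00258 by edgeR). Of its exonic bases, 28.3% overlap nAChRbeta3 on the opposite strand, so part of these reads may belong to that gene.

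Per unit of transcript length, the 10 genes had different orders in mutant and wild-type ovaries. In emerin, kay led with 109 ± 16.4 TPM (SD, n = 4), followed by Mmp1 at 57.2 ± 17.2 TPM, Jra at 48.1 ± 4.71 TPM, bsk at 45.6 ± 10.8 TPM and egr at 44.1 ± 9.24 TPM. Those from Mmp1 to egr did not differ from their neighbours beyond the spread. In wild type, kay, Jra, hep, bsk, puc, wgn and Mmp1 lay between 14.1 and 22.8 TPM on average, with overlapping ranges, and egr was at 9.24 ± 3.70 TPM (SD, n = 7). grnd and Ets21C were last in both, at 5.11 ± 1.6 and 2.05 ± 1.37 TPM in emerin and at 0.792 ± 0.406 and 0.343 ± 0.203 TPM in wild type.

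The double mutant was made to ask which of the emerin changes need the checkpoint kinase. Of the 10 genes, 9 were lower in chk2, emerin than in emerin, beside 26.4% of all genes lower and 22.7% higher. The groups did not overlap for any member, 9 being lower, beside 30.4% of all genes, and hep higher, beside 27.2%. The median log2 fold change was -1.57 for the 10 genes and -0.25 for all genes. Against wild type, log2 fold changes in chk2, emerin ranged from -0.43 to 0.54, and edgeR called none of the 10, beside 2.82% of all genes higher and 4.76% lower. bsk and Jra had an unadjusted p under 0.05, with values below wild type, and DESeq2 also called none. The approximate 95% intervals still allowed differences from wild type, such as -0.66 to 0.29 for egr, -0.65 to 0.62 for grnd and -1.07 to 0.90 for Ets21C. These 3 comparisons share libraries, emerin and chk2, emerin being set against the same wild type and against each other. The marker sums of muscle, hemocytes, trachea and ovarian somatic cells were lower in chk2, emerin than in emerin as well. Of the 9 ovarian somatic markers, 7 were lower, tj was higher (log2 1.55) and eya was not called. Hemocyte sums were 95.6 to 139 CPM in chk2, emerin and 939 to 1693 CPM in emerin. Fat body sums overlapped, at 840 to 1184 CPM in chk2, emerin and 770 to 1277 CPM in emerin. Of the 4 fat body markers, 3 were lower and FASN1 was higher. Germline sums were higher, at 4106 to 4260 CPM in chk2, emerin and 307 to 1465 CPM in emerin. Of the 7 germline markers, 6 were higher and bgcn was lower (log2 -2.33). The part of these markers in the lower levels of the 9 genes was not tested.

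The emerin and baf GLKD effects were compared directly. The difference between them ranged from -0.68 for hep to 0.29 for Jra on the log2 scale, and none of the 10 passed the test (smallest edgeR adjusted p = 0.772, and none at an unadjusted p under 0.05), beside 0.0470% of all genes in either direction. DESeq2 also called none. The intervals were wide, for example -0.77 to 0.84 for egr and -1.52 to 0.18 for Mmp1. In the 11 libraries with matching totals, the difference for hep was -2.48, with 1 library each of baf GLKD and nosgal4.

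The 2 emerin backgrounds did not differ in any member by the test. Of the 10 log2 fold changes of emerin G/PK against emerin G/PI, 9 were above 0, the range was -0.04 to 1.07, and the smallest edgeR adjusted p was 0.522, beside 0.697% of all genes called in either direction. wgn alone had an unadjusted p under 0.05, and DESeq2 called none. The largest value, 1.07 for Ets21C, had an approximate 95% interval of -0.22 to 2.36. Emerin G/PI replicate 1 was the lowest emerin library for all 9 genes called higher in emerin. In the 11 libraries with matching totals, emerin G/PI replicate 2 is the only library of its genotype. There the values were -0.36 for grnd, -0.24 for Mmp1, -0.05 for kay and -0.02 for bsk. They were above 0 for the other members, up to 0.96 for Ets21C. Germline marker sums were 307 and 381 CPM in emerin G/PK and 495 and 1465 CPM in emerin G/PI. nosgal4 against wild type gave no call either, beside 0.196% of all genes, with bsk and Mmp1 lower at an unadjusted p under 0.05 and no call by DESeq2.

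Other genes of the pathway were followed in 4 lists, 40 genes tested in all. In emerin against wild type, 15 were higher and 6 lower, with a median log2 fold change of 0.05, beside 28.3% of all genes higher and 26.6% lower. In baf GLKD against nosgal4, 9 were higher and 3 lower, with a median of 0.10, beside 13.3% and 8.28% of all genes. Most of the genes that were higher were in the list of JNK target genes, where 9 of 16 were higher in emerin and 1, upd1, was lower (median 0.88), and 7 were higher and none lower in baf GLKD (median 0.99). Of 12 upstream kinases and scaffolds 4 were higher and 2 lower in emerin, with a median of 0.04, and of 7 adaptors and ubiquitin enzymes 1 was higher and 2 lower, with a median of -0.19. In baf GLKD none of these 7 passed edgeR's test. Several of these counts are near the share of all genes, and no difference between the lists was tested.

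**Figure D4:**
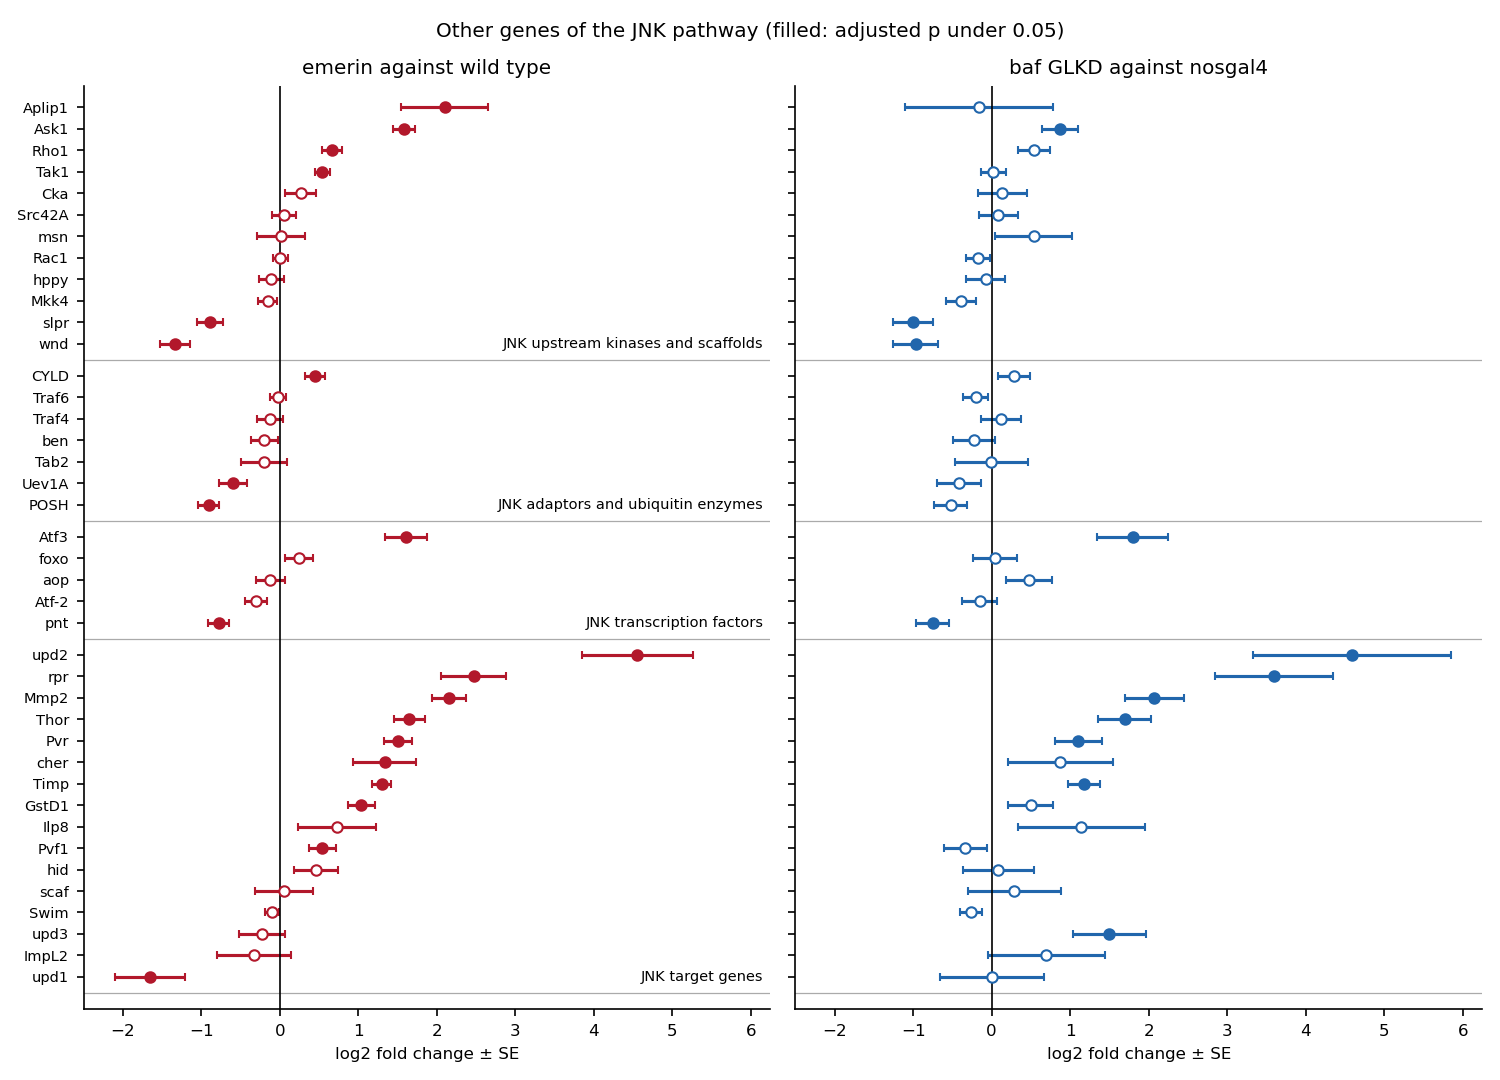
Log2 fold changes with bars of 1 standard error (horizontal axes) for 40 other genes of the JNK pathway in 4 lists, in emerin against wild type (left) and baf GLKD against nosgal4 (right), filled where the edgeR adjusted p was under 0.05. Target genes lie mainly to the right of 0, with 9 of 16 called higher in emerin, while the kinases slpr and wnd lie to the left in both.

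Among the target genes, Timp, the inhibitor of matrix metalloproteases, was at 233 ± 29.5 CPM in emerin and 95 ± 16.9 CPM in wild type (SD, n = 4 and 7), without overlap (log2 1.30 with an SE of 0.12, adjusted p = 4.36e-07 by edgeR). The baf GLKD libraries held 171 and 188 CPM, against 77.6 and 81.6 CPM in nosgal4 (log2 1.17, edgeR adjusted p = 0.00121). Mmp2, the other matrix metalloprotease gene, was at 116 ± 24.6 CPM in emerin and 26.1 ± 8.66 CPM in wild type (log2 2.16 with an SE of 0.22, adjusted p = 9.35e-07 by edgeR), and the fold change was 2.07 in baf GLKD on the log2 scale. Thor, which encodes the translation inhibitor 4E-BP, was at 203.5 ± 30.4 CPM in emerin and 64.8 ± 22.5 CPM in wild type (log2 1.65, edgeR adjusted p = 4.76e-06). Thor and Timp were the only genes of the 40 that passed edgeR's test in chk2, emerin against wild type, and both were lower. Thor was at 26.7, 28.8 and 26.9 CPM in chk2, emerin and at 44.1 to 107 CPM in wild type (log2 -1.24, edgeR adjusted p = 0.00726), and Timp at 55.5 to 64.8 CPM in chk2, emerin and 79.6 to 127 CPM in wild type (log2 -0.63, edgeR adjusted p = 0.0166). Pvr, the receptor for PDGF and VEGF ligands, which hemocytes also express, was at 245 ± 18.5 CPM in emerin and 86.2 ± 25.8 CPM in wild type (log2 1.5, edgeR adjusted p = 4.05e-06). Its call in baf GLKD, at 145 and 159 CPM against 78.3 and 63.0 CPM in nosgal4 (log2 1.11, edgeR adjusted p = 0.0151), was lost in 6 of 32 alternatives.

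The kinases that act on the JNK kinase split in direction. Ask1 was at 343 to 423 CPM in emerin and 88.5 to 163 CPM in wild type (log2 1.58 with an SE of 0.14, adjusted p = 2.12e-07 by edgeR), and at 210.4 and 232 CPM in baf GLKD, against 133 and 109 CPM in nosgal4 (log2 0.87, edgeR adjusted p = 0.0151). Tak1, which links Eiger receptors to the cascade, was at 97.6 to 112 CPM in emerin and 63.8 to 86.5 CPM in wild type (log2 0.54, edgeR adjusted p = 0.000207), but at 71.1 and 82.6 CPM in baf GLKD and 74.8 and 76.6 CPM in nosgal4. The mixed-lineage kinase genes were lower instead. wnd was at 16.5 to 26.1 CPM in emerin and 31.4 to 63.5 CPM in wild type (log2 -1.33 with an SE of 0.19, adjusted p = 2.12e-05 by edgeR), and slpr at 56.3 to 80.2 CPM in emerin and 76.7 to 154 CPM in wild type (log2 -0.89, edgeR adjusted p = 0.000277). Both were also lower in baf GLKD, by log2 values of -0.97 for wnd and -1.0 for slpr (edgeR adjusted p = 0.0243 and 0.0124). The call of wnd in baf GLKD was lost in 8 of 32 alternatives, among them each one that left out a baf GLKD or nosgal4 library, and that of slpr in 3. The call of Ask1 in baf GLKD was lost in 4. In chk2, emerin, wnd was at 61.7 to 70.5 CPM and slpr at 144 to 169 CPM, with no call against wild type.

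POSH, a scaffold of the cascade, was lower in emerin, at 26.6 to 31.7 CPM, against 36.3 to 68.5 CPM in wild type (log2 -0.90 with an SE of 0.13, adjusted p = 3.62e-05 by edgeR). Uev1A, a ubiquitin-conjugating partner in Eiger signalling, was also lower (log2 -0.60, edgeR adjusted p = 0.00932), and CYLD, a deubiquitinase gene, was higher by 0.45 with overlapping groups (edgeR adjusted p = 0.0062). The call of CYLD was lost in 5 of 36 alternatives, with values down to 0.03, and that of Uev1A in 3. Of 5 other transcription factor genes, Atf3, a bZIP factor that can pair with Jun, was higher in emerin (87.9 ± 24.5 CPM, against 28.8 ± 8.03 CPM in wild type, log2 1.61, edgeR adjusted p = 9.73e-05) and in baf GLKD (46.5 and 88.6 CPM, against 25.6 and 13.2 CPM in nosgal4, log2 1.80, edgeR adjusted p = 0.0111). The ETS gene pnt was lower in both, by log2 values of -0.78 and -0.75 (edgeR adjusted p = 0.000132 and 0.0181). In baf GLKD the call of pnt was lost in 6 of 32 alternatives and that of Atf3 in 4.

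As a description, the genes whose expression over the 18 libraries was most like that of kay were sano, CG31121, Grip, disco and if, with Pearson correlations of log2 CPM between 0.981 and 0.988 among 7948 genes compared. For puc they were CG42748, slo, Frq2, NfI and FBgn0259680, between 0.970 and 0.975. All libraries entered these correlations, so they share the contrast between mutant and reference ovaries, and the marker differences given above.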

How the data were processed

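Per the labels and the study's methods, paired reads were trimmed with Trim Galore (0.6.6 in the submitters' processing notes), and kallisto 0.46.1 estimated transcript abundance on BDGP6.32. The authors summed these to genes with tximeta and deposited the result as unscaled estimated counts, already whole numbers. Per transcript, they deposited estimated counts, TPM values and an effective length for 30944 transcripts. In 7 libraries (the first library set: CS 1 and 2, yw 1 and 2, emerin G/PI 1, nosgal4 1 and baf GLKD 1) their totals fall below the gene table, and in the other 11 (the second library set) they match.

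Gene names and coordinates were taken from BDGP6.54 (14194 genes, dm6 assembly). Genes with at least 10 counts over all 18 libraries were tested in edgeR 4.0.16 (R 4.3.3, limma 3.58.1) by the quasi-likelihood test with TMM scaling, 5 groups in 1 fit (7 genotypes for contrasts of strains or backgrounds), and Benjamini-Hochberg adjustment over all genes at 0.05. The code was tested on simulated data. SE is the log2 fold change divided by the square root of F, and 95% intervals are normal approximations. DESeq2 1.42.0 was an alternative. Python 3.11.15, pandas 2.3.3 and matplotlib 3.10.9 were used for tables and plots.

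The 10 genes, the lists and the tests were chosen with earlier results of these data known. Other pathway genes were named if they passed the test in emerin or baf GLKD, at most 4 for each list by adjusted p. All 4 CS libraries were used. zip, nos and Cg25C, listed as a target and as markers, were not matched in the table. Sequences are not shown, and promoters were not searched.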

Additional observations from a re-analysis of the deposited data

Results flagged for a closer look

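Each of the 10 genes was examined by Dixon's test in emerin, wild type and CS, groups of 4 or more libraries. In 3 of these 30 combinations a single library stood apart from the rest of its group. Chance alone gives about 1 in 20 for each combination. The 30 are not independent, because CS is part of wild type and the genes share libraries, so the count cannot be set against that rate. hep was at 29.0 CPM in CS replicate 2, while the other 3 CS libraries held 134 to 152 CPM. bsk was at 33.2 CPM in emerin G/PI replicate 1, while the other 3 emerin libraries held 62.5 to 63.4 CPM. kay was at 330.1 CPM in the same emerin library, while the others held 396 to 405 CPM. Emerin G/PI replicate 1 also had the highest Ote level and the highest germline marker sum of the emerin libraries, 59.0 and 1465 CPM.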

How the results depend on the processing

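The call of 9 of 10 genes in emerin against wild type was the same under DESeq2, other scalings and filters, either emerin background, either reference strain, and without any single library. In the second library set 10 were called, the same 9 higher and hep lower, and 0 in the first library set (chosen after seeing the data, with 1 emerin library), where all 9 kept their direction and bsk was at 0.06. The call of 8 genes in baf GLKD was less firm: 5 with only the groups compared, 0 in the first library set (1 library of each group, like the 6 in the second), and 4 to 9 with single libraries left out (5 without nosgal4 replicate 1, 4 without any of the other 3). Over all alternatives, Jra and puc lost the call in 8 each, Ets21C in 6 and bsk in 5. In the second library set, 1 gene (bsk) was called in chk2, emerin against wild type, 1 in nosgal4 against wild type, 1 in the emerin effect minus the baf GLKD effect and 0 in CS against yw. With CS only as wild type, 1 was called in nosgal4. With single libraries left out, chk2, emerin against wild type had 0 to 1 calls, emerin G/PK against emerin G/PI 0 to 1 and CS against yw 1 to 2. Values that changed sign were not called under the settings where the sign changed. In baf GLKD, hep was -0.65 in the first library set and -0.54 to 1.40 with single libraries left out. It reached 1.51 in the second library set, with 1 library of each group. Tak1 in baf GLKD was -0.0157 with only the groups compared, -0.078 in the first library set and -0.029 with the length trend removed. With single libraries left out it was -0.12 to 0.071. Tak1 was called higher in 1 of 32 alternatives, with values up to 0.48. Where not stated, the cause was not tested. For these member counts, the share of all genes called under the same alternative is not given. RLE scaling moved the median of all genes to 0.18 in both mutants, and 360 genes higher and 607 lower in chk2, emerin against wild type became 744 and 1156 with DESeq2. Alternatives other than the second library set were not run for transcripts, where it raised the 8 calls in chk2, emerin against emerin to 18. Whether replicate numbers pair the libraries could not be decided. Of 45 same-numbered pairs, 19 had correlated deviations over 0.1. The median was 0.08, against -0.06 for pairs with different numbers, and 13 of 18 libraries correlated best with their own number. In a group of 2 libraries the deviations from the group mean mirror each other, so these correlations only change sign with the number. For nosgal4 and baf GLKD the same-numbered libraries, which also share a library set, had r = 0.462. With the replicate block, emerin against wild type kept 9 calls and baf GLKD 7, Jra being lost (0.58, edgeR adjusted p = 0.0561). Depth limited grnd and Ets21C, at 12 to 59 counts in reference and chk2, emerin libraries.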
